A study of Mus musculus with 8 samples.

Results

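P2rx7 and its chromosome 5 neighbours P2rx4 and Camkk2 were measured by 6 probes of the 55681 on the array, and all 6 were among the 33307 probes tested. The probes were chosen by gene symbol, with the mutant over wild-type ratios already known, so those ratios are given as a description without a test. P2rx7 had 3 probes, P2rx4 had 1 and Camkk2 had 2. The RNA came from frozen tissue cut across the whole brain of 8 mice. The mutant group was 4 mice homozygous for a mutated Pus1 gene, which encodes pseudouridine synthase 1, an enzyme that modifies uridines in tRNA and other RNAs. The wild-type group was 4 mice. All 8 were 14 to 16 weeks old and C57BL/6J after 5 generations of backcrossing, and no other allele or treatment is labelled. Each array carried a pair, made of 1 mutant and 1 wild-type brain from mice of like sex and number. Females formed pairs 1 and 2 and males formed pairs 3 and 4, and the mutant was labelled with Cy5 in pairs 1 and 3 and with Cy3 in pairs 2 and 4. The sources used here do not give the strain in which the Pus1 allele was made. Pus1 lies on the same chromosome as the 3 genes, and DNA carried along with the mutated allele through backcrossing cannot be told apart from the mutation itself in this design.

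P2X7 is a cation channel opened by extracellular ATP. In brain it is best known from microglia, where its opening lets potassium out of the cell and leads to assembly of the NLRP3 inflammasome and release of interleukin-1 beta. P2X4 is a related ATP-gated channel with a higher affinity for ATP, also studied in microglia and neurons. CaMKK2 is a calcium- and calmodulin-dependent kinase, abundant in neurons, which phosphorylates CaMKI, CaMKIV and AMP-activated protein kinase. In the RefSeq order of chromosome 5 (GRCm38.p6) the genes follow one another as P2rx7, P2rx4 and Camkk2, with 151 named genes between Pus1 and P2rx7.

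The 3 P2rx7 probes carry different RefSeq transcript accessions (NM_011027, NM_001038887 and NM_001038845), and RefSeq lists more than 1 start for the gene. The 250 bases before each of its listed starts (RefSeq, build GRCm38.p6) are shown because the probes of the gene gave different ratios. Capitals mark matches to the GC box GGGCGG on either strand.
P2rx7, first start, chr5:122643677-122643926, plus strand: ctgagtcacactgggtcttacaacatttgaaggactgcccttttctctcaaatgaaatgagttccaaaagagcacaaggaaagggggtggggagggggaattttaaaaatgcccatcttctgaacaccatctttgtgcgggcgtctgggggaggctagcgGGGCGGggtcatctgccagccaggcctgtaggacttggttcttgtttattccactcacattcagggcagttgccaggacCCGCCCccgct
P2rx7, second start, chr5:122650133-122650382, plus strand: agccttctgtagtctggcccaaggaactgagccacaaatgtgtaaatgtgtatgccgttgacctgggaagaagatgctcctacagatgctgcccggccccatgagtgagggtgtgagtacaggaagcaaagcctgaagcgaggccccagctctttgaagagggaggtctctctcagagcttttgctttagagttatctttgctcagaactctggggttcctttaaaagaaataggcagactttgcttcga
The first sequence held 2 GC boxes, 6 CpG sites and 53.6% GC, and the second held no GC box, 4 CpG sites and 50% GC. Over 32851 RefSeq promoter sequences of the same length the median was 6 CpG sites and 52.4% GC, and 32.7% held a GC box. The sequence before P2rx4 had 13 CpG sites and 57.2% GC with no GC box, and the one before Camkk2, on the minus strand, had 32 CpG sites and 72.4% GC with 1 GC box. The TATA box letters TATAAA, in 12.4% of promoters, were searched on both strands and matched none of these 4 windows, and neither did the composite site of ATF4 and C/EBP (TGATGNAA, in 3.45% of promoters). The sources used here do not give the start or exon that each probe reports on.

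The targeted gene was read first as a check of the labels. Pus1 (A_55_P2056100) had normalized log2 intensities of 7.08, 7.17, 6.75 and 7.04 in mutant brains of pairs 1 to 4, against 9.14, 10.11, 9.36 and 9.79 in wild-type brains. Its log2 mutant over wild-type ratio averaged -2.59 ± 0.38 over the 4 pairs (limma adjusted p = 0.0364, which 3 probes or 0.00901% of those tested passed), and 3 of the mutant but 4 of the wild-type samples were marked well above background. With mutant spots this close to background the size depends on the scale, and it was -3.83 in the authors' deposited table and -3.82 on the scale of the scanner software. The adjusted p was 0.893 without pair 1 and 1.00 without pair 3, and 0.0588 with no replicate block, over a range of 0.000415 to 1.00 in the alternatives, in all of which the ratio was negative. The genotypes did not overlap at this probe. The sources used here do not give the place of this probe relative to the mutation.

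A single P2rx7 probe was lower in every mutant brain and the other two overlapped between genotypes. The probe A_52_P393314 (NM_011027) had normalized log2 intensities of 8.49, 8.95, 8.16 and 8.56 in mutant brains of pairs 1 to 4, against 9.84, 9.93, 9.93 and 10.17 in wild-type brains. The mutant mean was 8.54 ± 0.32 and the wild-type mean 9.97 ± 0.14 (SD, n = 4 each). The highest mutant sample, in pair 2, lay 0.89 below the lowest wild-type sample, in pair 1. As a log2 ratio of mutant over wild type this was -1.35, -0.98, -1.77 and -1.61 in pairs 1 to 4, a mean of -1.43 ± 0.35 (SD, n = 4 pairs), which is a level 2.69 times as high in wild type. Its spot brightness was 3.21 to 14.9 times the local background over the 8 samples, and it was marked well above background in all 8. Of the 6 probes it was the only one whose groups did not overlap. All 4 mutant levels lay below all 4 wild-type levels at 0.39% of tested probes, and since the gene was picked on this contrast nothing is read from that share.

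The probe A_55_P2183010 (NM_001038887) had 7.99, 7.88, 7.80 and 7.67 in mutant brains of pairs 1 to 4, against 8.36, 7.83, 7.86 and 8.21 in wild-type brains, as normalized log2 intensities. Its log2 ratio was -0.37, 0.04, -0.06 and -0.53, a mean of -0.23 ± 0.27. The groups overlapped, and pairs 2 and 3 were near 0 while pairs 1 and 4 were lower in the mutant. It was well above background in all 8 samples, at 2.46 to 4.13 times the local background. The probe A_51_P506733 (NM_001038845) had 7.07, 7.18, 7.27 and 7.35 in mutant brains, against 7.52, 6.90, 7.36 and 7.54 in wild-type brains. Its log2 ratio was -0.45, 0.28, -0.09 and -0.19, a mean of -0.11 ± 0.30. This probe was dim, at 1.36 to 2.72 times the local background, and was marked well above background in all 4 mutant brains and in all wild-type brains but that of pair 2. Near the background the offset used in the correction draws ratios toward 0, which limits what the value of this probe can show.

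**Figure D1:**
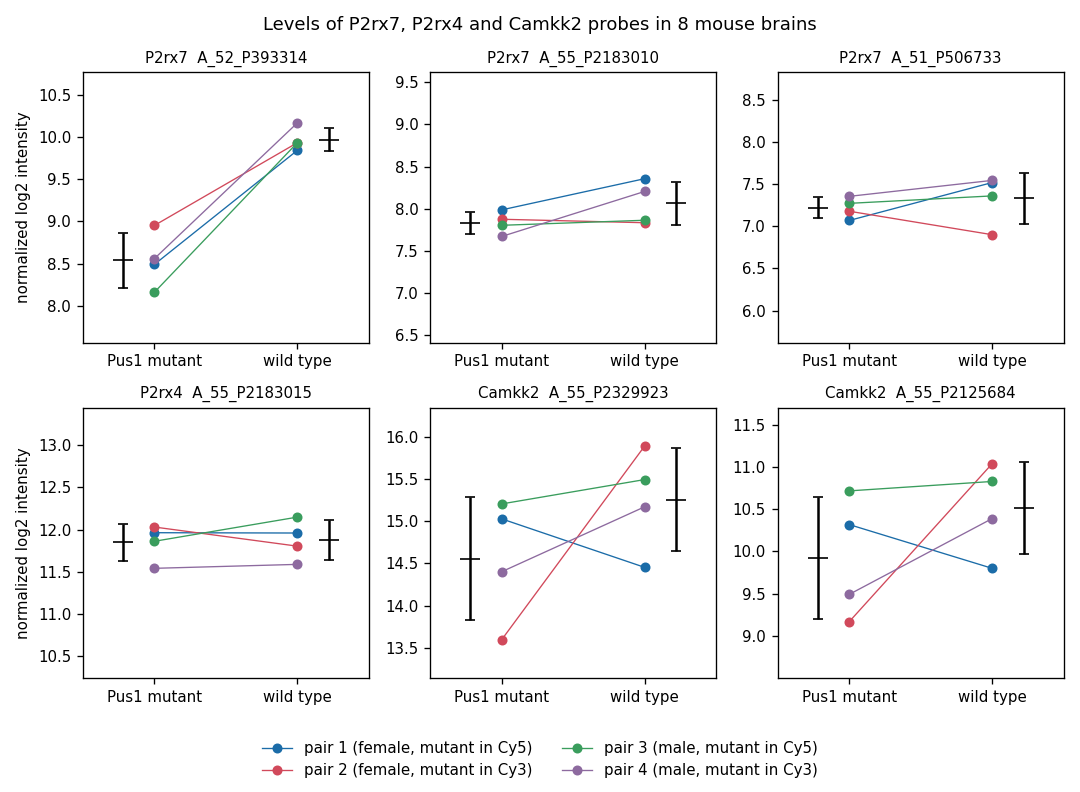
Normalized log2 intensity of each P2rx7, P2rx4 and Camkk2 probe in Pus1 mutant and wild-type brains, with lines joining the mice of a pair and black bars giving the mean and SD of 4 mice. The mutant samples lie below all wild-type samples at P2rx7 A_52_P393314, and the genotypes overlap at the other 5 probes.

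The disagreement between the P2rx7 probes was present in every pair. The log2 ratio of A_52_P393314 minus that of A_55_P2183010 was -0.98, -1.02, -1.71 and -1.08 in pairs 1 to 4, a mean of -1.20 ± 0.35. Against A_51_P506733 the difference was -0.90, -1.26, -1.68 and -1.42, a mean of -1.32 ± 0.33. The other two probes differed from each other by -0.12 ± 0.20, with both signs among the pairs. These differences were read within arrays, so the same 2 RNA samples underlie both ratios of a pair.

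The spread between probes of a gene, taken as the highest minus the lowest mean log2 ratio, put the size of this disagreement in context. It was 1.32 for P2rx7, against a median of 0.10, a 95th percentile of 0.35 and a 99th percentile of 0.56 over 3947 genes with at least 2 tested probes. Patj, a cell polarity scaffold gene on chromosome 4, was the one gene with a wider spread, at 1.33. Among the 574 genes with exactly 3 tested probes the median was 0.17 and no other gene reached the value of P2rx7. With the scanner software's own ratio the P2rx7 spread was 1.6, and with median centring of the arrays in place of loess it was 1.37. Camkk2, by contrast, had a spread of 0.10, and 49.4% of genes had at least that. P2rx7 was named because its probes disagree, so its rank here is a description.

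**Figure D2:**
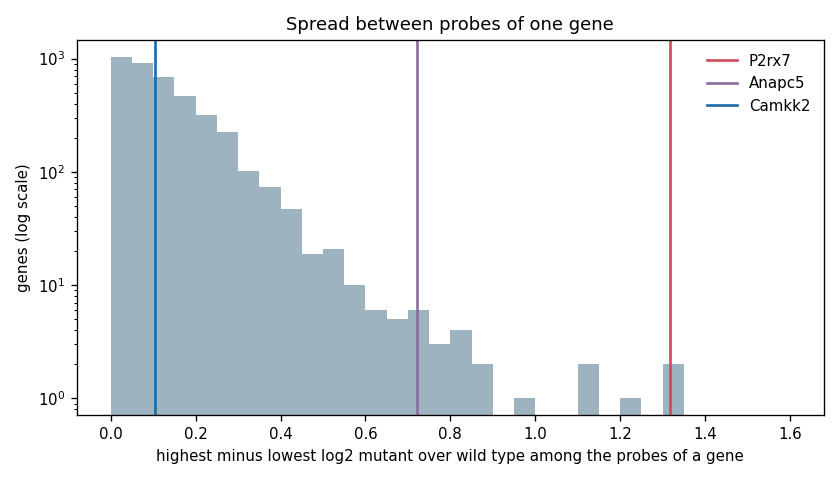
Histogram of the spread between probes of a gene (highest minus lowest mean log2 mutant over wild-type ratio) over 3947 genes, with the number of genes on a log axis. P2rx7 at 1.32 stands at the far end, Anapc5 lies at 0.72 and Camkk2 at 0.10, beside the median.

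Several of the widest spreads between probes lay on chromosome 5, the chromosome of P2rx7 and Pus1. Chromosome 5 held 259 of the 3947 genes with at least 2 tested probes, or 6.56%, and 10 of the 40 genes above the 99th percentile, or 25.0%. Besides P2rx7 these were 1500011B03Rik, Rpap2, Sgsm1, Tmed5, Tmem132b, Pcdh7, Septin11, Anapc5 and Tsc22d4, named after their values were seen. Of the 49 tested probes with a symbol whose mutant levels all lay below wild type, 13 or 26.5% were on chromosome 5, which held 6.20% of tested probes with a symbol. P2rx7 A_52_P393314 and Pus1 are among these 13. Of the 164 such probes with all mutant levels above wild type, 12 or 7.32% were on chromosome 5, and 0.646% of all tested probes were above in this way. These shares are a description of the 4 pairs and were not tested.

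Anapc5, a subunit of the anaphase-promoting complex and the first gene past Camkk2, also had probes that disagreed. Its probe A_55_P2011659 had normalized log2 intensities of 10.64, 10.75, 10.66 and 10.93 in mutant brains of pairs 1 to 4, against 11.50, 11.55, 11.60 and 11.57 in wild-type brains. The log2 ratio was -0.81 ± 0.13 (limma adjusted p = 0.452), and the groups did not overlap. Its other probe, A_55_P1952359, had a ratio of -0.09 ± 0.10 (limma adjusted p = 0.914), so the 2 probes of Anapc5 were 0.72 apart. Both carry the same accession, NM_021505. Neither passed the test across all probes.

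P2rx4, the gene next to P2rx7, did not separate the genotypes. Its probe A_55_P2183015 (NM_011026) had normalized log2 intensities of 11.96, 12.03, 11.86 and 11.54 in mutant brains of pairs 1 to 4, against 11.96, 11.80, 12.15 and 11.59 in wild-type brains. The log2 ratio was 0.00, 0.23, -0.29 and -0.05, a mean of -0.03 ± 0.21 (SD, n = 4 pairs). The groups overlapped almost fully, and the spot was 31.3 to 56.8 times as bright as its background, so dimness does not limit this value. The P2rx4 ratios put the pairs in the same order as those of P2rx7 A_52_P393314, with pair 2 highest, then pairs 1, 4 and 3, at values around 0 for P2rx4. The scanner software's ratio kept this shared order, but the authors' deposited table and median centring did not. With median centring P2rx7 had -1.10, -1.37, -1.55 and -1.86 in pairs 1 to 4, and P2rx4 had 0.41, -0.32, -0.02 and -0.37.

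The Camkk2 ratio varied widely between pairs, and its 2 probes gave like values in each pair. The probe A_55_P2329923 (NM_001199676) had normalized log2 intensities of 15.03, 13.60, 15.20 and 14.40 in mutant brains of pairs 1 to 4, against 14.45, 15.89, 15.49 and 15.17 in wild-type brains. Its log2 ratio was 0.57, -2.30, -0.29 and -0.77, a mean of -0.69 ± 1.20. The probe A_55_P2125684 (NM_145358) had 10.32, 9.17, 10.72 and 9.49 in mutant brains, against 9.80, 11.04, 10.83 and 10.39 in wild-type brains. Its log2 ratio was 0.52, -1.87, -0.11 and -0.90, a mean of -0.59 ± 1.03. The groups overlapped at both probes, pair 1 was higher in the mutant and the other 3 pairs were lower. Without pair 2 the fitted ratio of A_55_P2329923 became -0.31, and without pair 4 it became -1.08. These fits weigh the Cy5 and Cy3 orientations of the mutant equally, so they are not plain means of the remaining pairs.

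Markers of cortical excitatory neurons had the sign of Camkk2 in each pair. The median log2 ratio of 8 such markers was 0.29, -3.38, -0.14 and -0.28 in pairs 1 to 4, and the list median was -0.76 with 8 of 8 markers lower and none past the test. The median level of these markers ranged from 8.64 to 12.03 over mutant brains and from 8.38 to 12.78 over wild-type brains. Camk2a, the alpha subunit of the neuronal kinase CaMKII, had ratios of 0.71, -4.01, -0.35 and -0.16, and Camk4, a target kinase of CaMKK2, had 1.02, -2.51, 0.19 and -0.03. The 8 cerebellar granule cell markers had medians of 0.70, 0.33, 0.76 and 1.83 in the pairs, and the 7 Purkinje cell markers 0.42, 0.01, 0.56 and 0.96. No marker gene passed the test. The part of regional composition of the tissue cut in the Camkk2 values was not tested. In bulk RNA, fewer cells of a type and less RNA per cell cannot be told apart.

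P2rx7 A_52_P393314 was below 0 in every pair and least reduced in pair 2. With median centring it was least reduced in pair 1 (-1.10, against -1.37 in pair 2). The cortical marker median was above 0 in pair 1 and below 0 in the others, lowest in pair 2. The cerebellar granule cell and Purkinje cell medians were above 0 in every pair. The part of tissue composition in the P2rx7 values was not tested. The 10 oligodendrocyte markers, with medians of -0.21, 1.56, -0.55 and -0.23 in pairs 1 to 4, put the pairs in the same order as P2rx7 A_52_P393314. So did the 10 astrocyte markers, with 0.10, 0.45, -0.10 and 0.05, and the list of ATP release and breakdown genes. These orders were compared on the main scale only, and that of P2rx7 changed with median centring and in the authors' deposited table. The part of these lists in the variation of P2rx7 between pairs was not tested. The 15 tested microglia markers of 16 listed had a median ratio of -0.05, with 0.27, -0.22, -0.12 and -0.17 in pairs 1 to 4, which are also the signs of Camkk2, and 5 were higher and 10 lower with none past the test. Their median level ranged from 10.73 to 11.45 over mutant brains and from 10.93 to 11.62 over wild-type brains. Of the 10 lower, Cx3cr1, the fractalkine receptor, was at -0.26 ± 0.35 and Aif1, a microglial actin-binding protein, at -0.14 ± 0.34. Csf1r, the receptor for colony stimulating factor, was at -0.04 ± 0.21, with 0.03 and 0.07 at its other probes. Of the 5 higher, Siglech was at 0.22 ± 0.81 and C1qb at 0.07 ± 0.12. The 7 markers of oligodendrocyte precursors had 0.01 with 4 higher and 3 lower, and the 10 astrocyte markers 0.20 with 7 higher and 3 lower, none past the test. The 8 pan-neuronal markers, with median levels of 15.29 to 15.74 in mutant and 15.26 to 15.64 in wild-type brains, checked the labelled tissue.

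**Figure D3:**
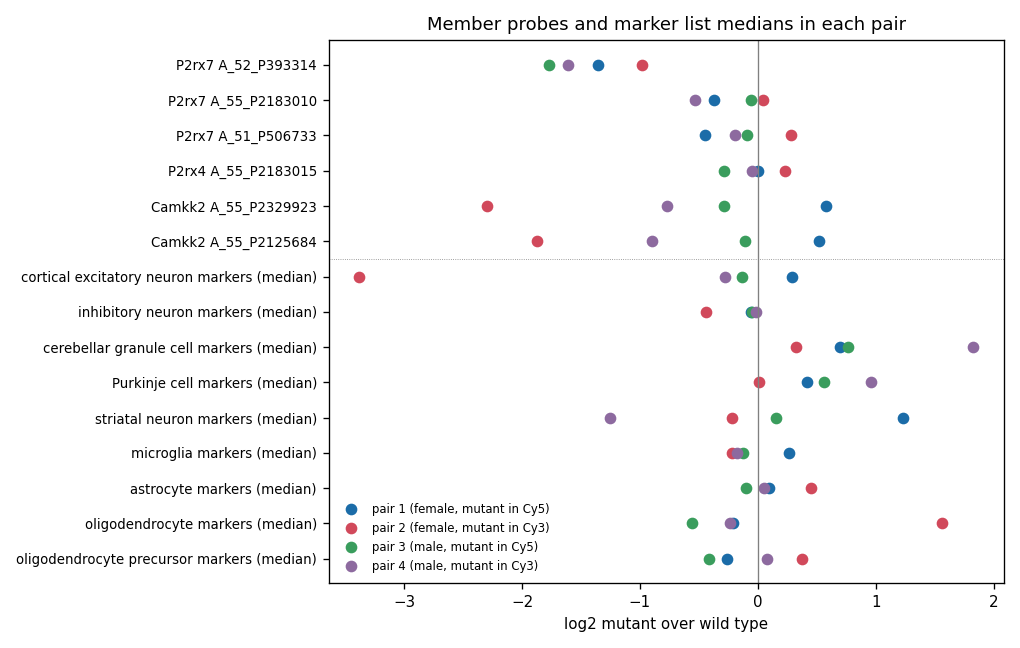
Log2 mutant over wild-type ratio of each P2rx7, P2rx4 and Camkk2 probe (above the dotted line) and the median ratio of marker lists (below it) in each of the 4 pairs, coloured by pair. Both Camkk2 probes and the cortical excitatory neuron markers are highest in pair 1 and lowest in pair 2, and P2rx7 A_52_P393314 is below 0 in every pair.

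Sex and dye were contrasts that the choice of genes did not use, and they were tested with limma across all 33307 probes. The P2rx7 A_52_P393314 ratio averaged -1.69 in the 2 male pairs and -1.17 in the 2 female pairs, a male minus female difference of -0.52 with a standard error of 0.26 (adjusted p = 0.993). For P2rx4 the difference was -0.28 with a standard error of 0.25, and for Camkk2 it was 0.33 with 0.56 at A_55_P2329923 and 0.17 with 0.42 at A_55_P2125684. None of the 6 probes passed, and neither did any other probe (0%, with 925 or 2.78% at an unadjusted p under 0.05), in a fit with 1 residual degree of freedom. The level itself, male over female, differed by -0.10 with a standard error of 0.30 at P2rx7 A_52_P393314, by -0.16 with 0.24 at P2rx4 and by 0.33 with 0.56 at Camkk2 A_55_P2329923, all at adjusted p = 1.00 (0% called, 55 probes or 0.165% at an unadjusted p under 0.05). The filter asks for 3 of 4 samples of a genotype and each genotype held 2 males and 2 females, so transcripts limited to one sex could not enter, and without the filter 8 probes were called. The 0% is therefore no measure of how often sexes differ.

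The mean Camkk2 ratio differed with dye orientation, but not past the test, and the pairs of one orientation also lay apart from each other. It averaged 0.14 with the mutant in Cy5 and -1.53 with the mutant in Cy3 at A_55_P2329923. At A_55_P2125684 it averaged 0.20 with the mutant in Cy5 and -1.39 with the mutant in Cy3. The dye term was 0.84 with a standard error of 0.28 at the first probe (limma adjusted p = 0.364) and 0.79 with 0.20 at the second (adjusted p = 0.362). P2rx7 A_52_P393314 averaged -1.56 with the mutant in Cy5 and -1.30 with the mutant in Cy3 (adjusted p of the dye term 0.711). No probe had a dye term past the threshold (0%, with 4320 or 13% at an unadjusted p under 0.05), and dye orientation and the particular mice of those pairs cannot be told apart.

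The scale moved the size of the P2rx7 difference but not its direction. With the scanner software's ratio A_52_P393314 had -1.68, -1.08, -2.28 and -1.81 in pairs 1 to 4, a mean of -1.71 ± 0.49. In the authors' deposited table the differences of mutant minus wild type averaged -1.74, and with median centring -1.47 ± 0.32. The probe A_55_P2183010 had -0.32 with the scanner software's ratio, and A_51_P506733 had -0.11. On that scale A_51_P506733 ranged from -0.81 to 0.73 between pairs.

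No gene next to the 3 passed the test. P2rx7, P2rx4 and Camkk2 did not pass it at their brightest probes either, so this does not set the neighbours apart from them. Of the 30 named genes that flank them, 15 on each side, 24 were tested, 10 higher and 14 lower in the mutant, with 0 past the limma threshold (0.0131% of all tested genes were called) and 3 at an unadjusted p under 0.05, which 6.16% of all tested genes had. Their median log2 ratio was -0.06, against 0.01 over all 15288 tested genes. The nearest tested genes toward Pus1 were Ift81, an intraflagellar transport gene (0.28 ± 0.39), the sarcoplasmic reticulum calcium pump Atp2a2 (-0.07 ± 0.62), Anapc7 (-0.07 ± 0.14), the actin-nucleating Arp2/3 subunit Arpc3 (-0.38 ± 0.62) and Gpn3 (0.11 ± 0.53). Past Camkk2, after Anapc5, came the ubiquitin ligase Rnf34 (0.21 ± 0.16, same sign in all 4 pairs), the histone demethylase Kdm2b (0.35 ± 0.34), the calcium channel Orai1 (0.21 ± 0.22) and Tmem120b (0.09 ± 0.10). Between Pus1 and P2rx7, 133 of the 151 genes were tested, 68 higher and 65 lower, with a median of 0.00. Of these, 0 were past the threshold and 16 had an unadjusted p under 0.05. When pair 4 was left out 6 were called, in a fit that called 933 of all 33307 probes. In that fit pair 2 alone had the mutant in Cy3, so its distance from the other pairs did not enter the error.

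**Figure D4:**
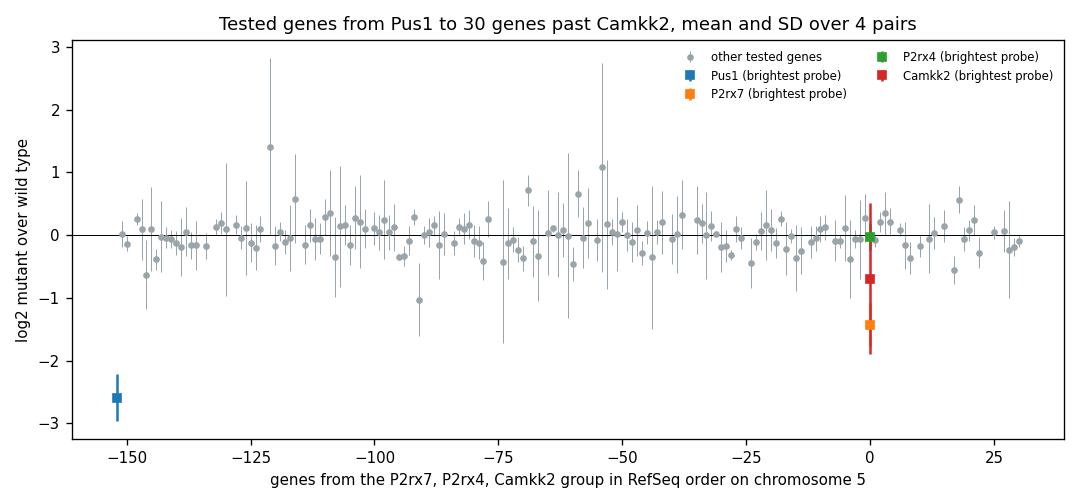
Mean log2 mutant over wild-type ratio and SD over 4 pairs of each tested gene (brightest probe), by its place in the RefSeq order of chromosome 5, with P2rx7, P2rx4 and Camkk2 plotted at 0. Pus1 at -2.59 and P2rx7 at -1.43 lie below the other genes shown, whose median is close to 0 and among which Dynll1 is at -1.03 ± 0.58. Other probes of a gene are not shown and can differ. Examples are P2rx7 (-0.23 and -0.11), Anapc5 (-0.09 shown, -0.81 not shown) and Sgsm1 (0.13 shown, -0.98 not shown).

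Among the genes whose levels followed P2rx7 A_52_P393314 most closely over the 8 samples were Pus1 (r = 0.97) and Mslnl, on chromosome 17 (r = 0.94). The 8 points share arrays and the genotype contrast, so these correlations are a description. By the root mean square difference of the 4 pair ratios, Sln (0.664) and Pla2g5 (0.695) were among the nearest genes.

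P2rx4 levels were most like those of Mrpl45 (r = 0.96), Sh3bp5l (r = 0.95) and Arhgef10l (r = 0.94), and Camkk2 A_55_P2329923 levels most like those of Pitpnm3 (r = 0.99), Tyro3 (r = 0.97) and Rgs7bp (r = 0.97), over the same 8 samples. None of these 6 genes is on chromosome 5, and 56 genes reached r = 0.9 with Camkk2. By pair ratios Camkk2 was nearest to Urah (0.120), Hpca (0.133) and Sag (0.157).

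The lists of pathway genes around the 3 had no gene past the test, which the 3 did not pass at their brightest probes either. Over 6 lists with 63 genes, 54 were tested, 23 higher and 31 lower in the mutant, and the median log2 ratio was -0.04. The limma threshold was passed by 0 of them, against 0.0131% of all tested genes. When pair 4 was left out 1 passed, P2rx5, in a fit that called 933 of all 33307 probes. In that fit pair 2 alone had the mutant in Cy3, so its distance from the other pairs did not enter the error. An unadjusted limma p under 0.05 was found for 2 (Casp4 and Prkaa1), and 6.16% of all tested genes had one. Nothing is read from these counts. The 5 other P2X receptor genes had a median of 0.16, with 4 higher and 1 lower. P2rx5 stood apart in pair 2, with -0.59, 2.61, -1.11 and 0.42 in pairs 1 to 4, and P2rx2, which is also on chromosome 5, had 0.15, 0.31, -0.35 and -0.08. Of the 6 tested P2Y receptors 3 were higher and 3 lower (median -0.02), and of the 4 adenosine receptors 1 was higher and 3 lower (median -0.15). The 11 tested genes of ATP release and breakdown had 7 higher and 4 lower (median 0.07), among them the ATP-release channel Panx1 at -0.26 ± 0.36 and the ectonucleotidase Entpd1 at -0.05 ± 0.11.

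Downstream of P2X7, 9 of 14 inflammasome and interleukin-1 genes were tested, 2 higher and 7 lower with none past the threshold, and Il1a, Il1b, Il1rn, Aim2 and Nlrc4 did not pass the filter on background. Casp4, the inflammatory caspase of the noncanonical inflammasome (caspase-11 in mouse), had ratios of 0.25, 0.31, 0.53 and 0.20 in pairs 1 to 4, a mean of 0.32 ± 0.15 (limma adjusted p = 0.811), with 0.31 at its other probe. Nlrp3, the sensor that P2X7 opening activates, had -0.18, -0.23, -0.15 and -0.02, a mean of -0.15 ± 0.09 (adjusted p = 0.866). These 2 were the genes of the 6 lists with the same sign in all pairs, which 11.7% of all tested genes had. Il18 was at -0.17 ± 0.14 and Casp1, which cleaves it and interleukin-1 beta, at -0.08 ± 0.35.

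Downstream of CaMKK2, all 19 listed genes of the CaMKK and AMPK pathway were tested, 6 higher and 13 lower with none past the threshold, at a median of -0.07. Camkk1, the sister kinase, had 0.20, -0.57, -0.09 and 0.22 in pairs 1 to 4. The AMPK catalytic subunit genes were at 0.35 ± 0.58 for Prkaa1 and -0.33 ± 0.43 for Prkaa2, and Stk11, which encodes the other main AMPK kinase LKB1, was at -0.05 ± 0.18. The SD over pairs was as large as or larger than the mean ratio for each of these 4 genes.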

How the data were processed

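Spots of the 2-colour arrays were quantified in Agilent Feature Extraction (10.7.3.1, per the submitters' processing notes). Spot and local background intensity were taken as the deposited median pixel values, which carry no correction, per the file headers. The deposited processed intensity had been background-subtracted and dye-normalized within the array, and the deposited log10 ratio is Cy5 over Cy3 of that signal, per the file headers. Other deposited values are 0 or 1 marks for spots that stand well over background, saturate or are outliers, per the file headers. A deposited table of the authors' log2 values has no stated scale. For the probes compared it followed the quantile-normalized log2 processed signal minus each probe's median over samples, which settled scale, centring and direction. Its column medians were -0.0271, 0.0199, -0.0142 and -0.00238 in the mutant and -0.0496, 0.0364, -0.00529 and 0.0345 in wild type, for pairs 1 to 4. The headers name an older genome build than the GRCm38.p6 RefSeq tables, so those gave only names, gene order and promoter sequences.

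Spots were corrected with normexp (offset 50), ratios normalized by loess within arrays with controls at weight 0, and spots marked as outliers left out. Levels per mouse followed Aquantile normalization between arrays. The 33307 probes well above background in at least 3 of 4 samples of either genotype and with values on all arrays were fitted in limma 3.58.1 (R 4.3.3, version 1.17.8 of data.table) with a genotype term signed by dye orientation plus a dye term, adjusted by Benjamini-Hochberg (residual degrees of freedom 2, prior 3.65). A gene is its brightest tested probe. The fits were checked on simulated data. Between 56.3% and 67.7% of probes were well above background per channel, and the SD of log2 ratios was 0.279, 0.633, 0.395 and 0.329 in pairs 1 to 4. The 4 arrays shared 1 slide. The number of arrays limits precision. In the main fit the error behind the p-values comes from differences between pairs of like dye orientation, which differ in sex. It is drawn toward a prior shared by all probes, so it is not the SD over pairs printed with the means. Mice of the same number share an array, which is where the pairing comes from. Their deviations from the genotype means correlated at 0.791, 0.315, 0.493 and 0.740, and in pair 2 another number correlated higher, at 0.427.

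Members and lists were chosen with earlier results of these data known. Named are all member probes, Pus1, up to 4 genes per pathway list among those of the same sign in all pairs and any gene called, the 5 nearest tested genes on each side, and the 3 genes most like each member, of which 1 is not reported here. Other genes are named to illustrate a list or count, after their values were seen. Alternatives were other ratios and centring, the authors' table, other fits, no filter, and leaving out each pair.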

Additional observations from a re-analysis of the deposited data

Results flagged for a closer look

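P2rx4 A_55_P2183015 had ratios on opposite sides of 0 in the sexes, higher in the mutant in both female pairs (0.00, just above zero, and 0.23) and lower in both male pairs (-0.29 and -0.05), a male minus female difference of -0.28. The test of this difference in limma gave adjusted p = 0.993, and the pattern rests on a pair 1 ratio of almost 0. Pair 1 was at -0.0062 with the scanner software's ratio and at -0.015 in the authors' deposited table, so the sexes were not on opposite sides of 0 there, nor with median centring (0.41 and -0.32 in female pairs, -0.02 and -0.37 in male pairs).

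The median of the 11 genes of ATP release and breakdown was likewise positive in both female pairs (0.04 and 0.42) and negative in both male pairs (-0.13 and -0.05), a male minus female difference of -0.32. This difference of list medians was not tested.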

How the results depend on the processing

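The log2 ratio of P2rx7 A_52_P393314 was negative in each of the 7 alternatives that can change it (-1.74 to -1.27), as were those of P2rx7 A_55_P2183010 (-0.37 to -0.09), Camkk2 A_55_P2329923 (-1.08 to -0.31) and Camkk2 A_55_P2125684 (-0.84 to -0.35). P2rx7 A_51_P506733 ran from -0.23 to 0.00 and P2rx4 from -0.10 to 0.05. The sign of the fitted ratio turned without pair 4 for both and also without pair 3 for P2rx4. Fits without 1 pair weigh the dye orientations equally and do not give plain means of the remaining pairs. Without pair 4, pair 2 counts as much as pairs 1 and 3 together, so these turns of sign can come from the weighting. The other 6 alternatives change the error alone and return the same mean at each member probe. The count of 3 probes past the threshold over all probes was 0 on the scanner software's scale, 0 in the authors' deposited table, 1 with no replicate block, 25 with the array as a random block, 0 with a genotype by sex term and 0 to 933 without 1 pair (0, 13, 0 and 933 without pairs 1 to 4). Without 1 pair the count of pathway genes called was 0 to 1. For genes between Pus1 and P2rx7 it was 0 to 6 (6 without pair 4). The pathway gene was P2rx5, without pair 4, at a fitted log2 ratio of 0.88. Its ratios in pairs 1 to 3 were -0.59, 2.61 and -1.11, so the fitted value leans on pair 2. The median of the genes between Pus1 and P2rx7, near 0, turned to -0.0643 with median centring. The count of probes past the threshold between males and females became 8 with no filter. The cause of these changes was not tested. Leaving out a pair lowers the degrees of freedom, and the pair left alone in its dye orientation is then fitted exactly. Such a pair enters the ratio but adds nothing to the error, so these counts are not compared with that of the main fit. No shift of scaling moved the median of all probes by over 0.1. Brightness limits A_51_P506733 of P2rx7 most, since it lay close to background.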

Other observations

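Of the 13 chromosome 5 probes with all mutant levels below all wild-type levels, 12 lay from Rpap2, 204 genes before P2rx7 on the side of Pus1, to Castor2, 93 genes past Camkk2. This stretch was bounded by the outermost of the 12 probes themselves. The share of all tested chromosome 5 probes within it was not counted, so no clustering is read from it. Pus1, P2rx7, Anapc5, Ddx55 and Diablo are among the 12. Some of the others also had probes that disagreed, among them Rpap2 A_65_P03606 at -1.25 ± 0.14, with 1.12 between its probes, and Sgsm1 A_55_P2088711 at -0.98 ± 0.42, with 1.11 between its probes. Tmed5 A_55_P2105362 was at -0.84 ± 0.19, with 0.80 between its probes.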
